A study of Caenorhabditis elegans with 4 samples.

Results

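The 9 genes described here act in the epidermis, the seam cells and the gut of *Caenorhabditis elegans*. All but *bro-1*, whose product is a partner of RNT-1, encode transcription factors. The genes are the GATA factors *elt-1*, *elt-2*, *elt-3*, *elt-6*, *elt-7* and *egl-18*, with the seam cell factors *ceh-16*, *rnt-1* and *bro-1*. They were chosen by name from the 19913 genes in the table of counts, and each of the 9 names matched 1 row. The rule used no measured value. The counts come from whole larvae of the first larval stage (L1), in 2 libraries of *pry-1(mu38)* and 2 libraries of the wild-type strain N2, given as biological replicates in the study's methods. The *pry-1(mu38)* animals carry a nonsense allele of the Axin gene *pry-1*, and both strains were grown on NGM plates at 20 °C and synchronized by repeated bleaching, with no other treatment. The series compares these strains to find genes that change when WNT signaling is active without its Axin brake.

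GATA factors are zinc finger proteins that bind DNA at the letters GATA and direct the fate of whole tissues. ELT-1 starts the epidermal program in the embryo and ELT-3 acts in the main epidermis, whereas ELT-2 and its partner ELT-7 maintain the intestine. The seam is a lateral row of epidermal stem cells that divide unequally in each larval stage. EGL-18 and ELT-6 act in these cells downstream of the WNT/β-catenin asymmetry pathway and keep the seam fate. CEH-16, the Engrailed homolog, also promotes seam fate, and RNT-1, the Runx homolog, acts with its CBFβ-type partner BRO-1 to allow seam cells to proliferate.

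None of the 9 genes passed the test between the strains, and the fitted changes of all 9 were under 2-fold. In *elt-1*, *elt-6*, *ceh-16*, *rnt-1* and *elt-7* the levels were higher in both *pry-1(mu38)* libraries than in both N2 libraries, by 1.18 to 1.46-fold, as they were in 29.1% of all genes tested (28% were lower in both). For *elt-1* this did not hold with DESeq2's size factors, nor for *ceh-16* with quantile normalization. The groups overlapped in *elt-3*, *egl-18*, *bro-1* and *elt-2*. The WNT-responsive seam gene *egl-18* was nearly level, at 1.03-fold with a 95% interval of 0.772 to 1.37. Within each library, *elt-7* was higher relative to *elt-2* in *pry-1(mu38)* than in N2. The ratios of *egl-18* to its neighbour *elt-6* and of *elt-3* to *elt-1* were lower. That of *ceh-16* to *egl-18* was almost equal in 1 library of each strain (0.162 and 0.161), and that of *bro-1* to *rnt-1* overlapped. With 2 libraries per strain, an exact permutation test of such ratios cannot reach a p under 0.333.

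Each library held 27741375 to 33230854 counts on genes. As a check of the labels, *pry-1* had 3812 and 3471 counts in *pry-1(mu38)*, against 1926 and 2048 counts in N2 (adjusted p = 0.345). The allele is not a deletion, so these counts are a weak check. N2 replicate 2 stood apart. Its log2 levels differed from those of the other N2 library with an SD of 0.693 over 15101 genes, whereas this SD was 0.348 between the replicates of *pry-1(mu38)*. N2 replicate 1 lay closer to *pry-1(mu38)* replicate 2 (SD 0.429) than to its own replicate, and results below that depend on N2 replicate 2 are also given without it. Summed over the marker genes of a tissue, intestine markers (7 of 8 matched) gave 2680 and 2489 CPM (counts on a common library size) in *pry-1(mu38)*, against 2652 and 2790.3 CPM in N2. Epidermis markers (8 of 8) gave 261 and 374 CPM in *pry-1(mu38)*, against 399 and 714 CPM in N2. The difference between the strain means lay in *sqt-3*, a cuticle collagen gene. The other 7 markers summed to 240 and 282 CPM in *pry-1(mu38)*, against 272 and 234 CPM in N2, and overlapped. Pharynx markers (5 of 6) gave 140.4 and 267 CPM in *pry-1(mu38)*, against 401 and 1093 CPM in N2. None of the matched intestine, epidermis or pharynx markers was at 0 in a library.

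The levels of the 9 genes were first compared with each other in TPM, for which each count is divided by the length of the gene's exons and scaled to a common total. Per length, *elt-3* was the most abundant of the 9 genes, at 69.0 and 68.2 TPM in *pry-1(mu38)* and 89.3 and 66.6 TPM in N2. It was followed by *egl-18*, with 53.9 and 54.1 TPM in *pry-1(mu38)* and 54.7 and 48.8 TPM in N2. The next in order was *elt-6*, with 37.1 and 33.2 TPM in *pry-1(mu38)* and 29.0 and 26.0 TPM in N2. The order of these 3 genes was the same in each of the 4 libraries and their ranges did not overlap within a strain. The middle of the order was less settled. *elt-1* was the fourth gene in both *pry-1(mu38)* libraries, with 32.2 and 25.6 TPM, and in N2 replicate 1, with 24.9 TPM, but came after *elt-2* and *ceh-16* in N2 replicate 2, with 14.2 TPM. *ceh-16* and *elt-2* could not be ordered, since each was higher in 2 of the 4 libraries. *elt-2* and *elt-7* overlapped in *pry-1(mu38)*, where *elt-2* had 14.7 and 12.8 TPM and *elt-7* had 14.3 and 13.99 TPM. *bro-1* was the lowest in every library, at 6.77 and 5.69 TPM in *pry-1(mu38)* and 6.27 and 2.47 TPM in N2. The Runx gene *rnt-1*, whose product pairs with BRO-1, was higher in each library. Per length, the level of *bro-1* was 0.491 and 0.442 of that of *rnt-1* in *pry-1(mu38)* and 0.616 and 0.275 of it in N2.

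**Figure D1:**
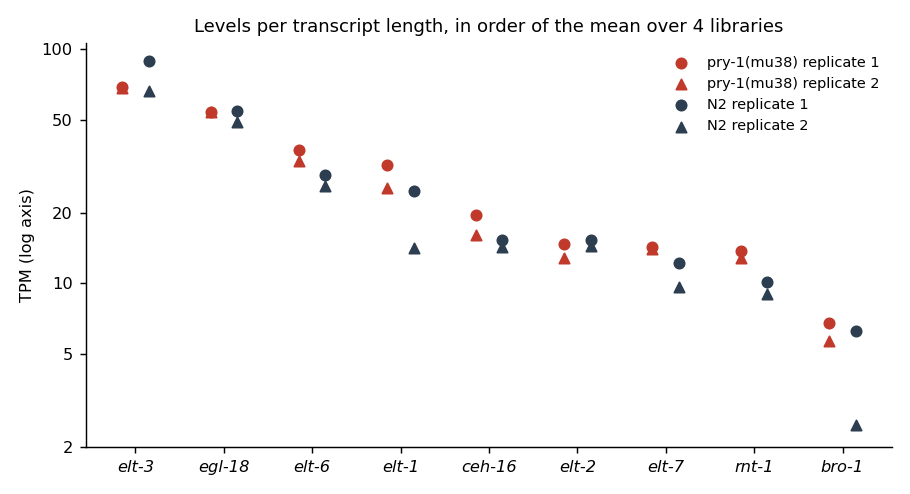
TPM of each gene (log axis) in the *pry-1(mu38)* (red) and N2 (dark) libraries, with circles for replicate 1 and triangles for replicate 2; genes run from the highest to the lowest mean over the 4 libraries. *elt-3*, *egl-18* and *elt-6* lead in each library, *bro-1* is the lowest in each, and the N2 replicate 2 points of *elt-1* (14.2 TPM) and *bro-1* (2.47 TPM) lie well under the other N2 library.

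The quasi-likelihood test of edgeR was used to compare the strains, with p-values adjusted by Benjamini-Hochberg over all 15101 genes that passed a filter on low counts. All 9 genes passed this filter. The levels below are in CPM, with library sizes scaled by TMM, and fold changes are *pry-1(mu38)* over N2. Because RNA of whole animals was sequenced, fewer cells of a type and less RNA per cell cannot be told apart.

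Of the epidermal factors, *elt-1* had 45.4 and 35.55 CPM in *pry-1(mu38)*, against 35.50 and 20.2 CPM in N2. The lower *pry-1(mu38)* library and the higher N2 library were therefore almost equal, and with DESeq2's size factors they overlapped. The log2 fold change was 0.54, with a standard error (SE) of 0.32 and an adjusted p of 0.418, a 1.46-fold difference. N2 replicate 2 set most of it, since the value was 0.18 without that library, and 1.04 when replicate 1 of N2 was the one left out. *elt-3* had 64.6 and 62.8 CPM in *pry-1(mu38)*, against 84.3 and 62.6 CPM in N2. N2 replicate 1 was high and the other 3 libraries were close together. Its log2 fold change of -0.20 (SE 0.20, adjusted p = 0.586) became 0.057 when N2 replicate 1 was left out, and -0.41 when its replicate 2 was. The direction of *elt-3* thus rested on 1 library.

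Among the seam cell factors, *egl-18* varied least. It had 58.1 and 57.3 CPM in *pry-1(mu38)*, against 59.4 and 52.8 CPM in N2, and both mutant values lay between the N2 values. The log2 fold change was 0.040 (SE 0.16, adjusted p = 0.896), with a smaller p in 90.6% of the genes tested. It was -0.048 without N2 replicate 2. The gene next to *egl-18* on the same strand is *elt-6*, and no exon of *elt-6* overlaps another gene. *elt-6* had 33.2 and 29.3 CPM in *pry-1(mu38)*, against 26.2 and 23.5 CPM in N2. The groups did not overlap, and the 1.26-fold difference (95% interval 0.910 to 1.74) was 0.33 on the log2 scale (SE 0.18, adjusted p = 0.391). Leaving out each library in turn gave values from 0.25 to 0.45.

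*ceh-16* had 11.5 and 9.29 CPM in *pry-1(mu38)*, against 9.11 and 8.49 CPM in N2. The strains were separated by less than the *pry-1(mu38)* libraries differed between themselves. Its log2 fold change was 0.24 (SE 0.24, adjusted p = 0.579). With replicate 1 of *pry-1(mu38)* left out it was 0.093, and with replicate 2 left out 0.41. Of the exon length of *ceh-16*, 6.18% overlaps *polk-1* on the other strand, where reads cannot be assigned if strand was not used in the counting.

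Of the 9 genes, *rnt-1* had the smallest p-value. It had 13.9 and 12.8 CPM in *pry-1(mu38)*, against 10.3 and 9.10 CPM in N2, so that the groups were clearly apart and the replicates of each strain were close. The 1.37-fold difference (95% interval 0.938 to 2.01) was 0.46 on the log2 scale (SE 0.21, unadjusted p = 0.0856, adjusted p = 0.357). Leaving out any of the 4 libraries gave values between 0.36 and 0.58. Even so, 23.9% of all genes tested had a smaller p. Its partner gene *bro-1* had the lowest counts of the set, 159 and 131 in *pry-1(mu38)*, against 126 and 60 in N2. In CPM these were 4.94 and 4.08 in *pry-1(mu38)*, against 4.61 and 1.81 in N2. N2 replicate 2 was low and the other 3 libraries overlapped. The log2 fold change of 0.49 (SE 0.51, adjusted p = 0.600) was -0.038 with that low library left out and 1.34 with the other N2 library left out, and its 95% interval, from 0.564 to 3.52-fold, was the widest of the 9.

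Of the gut factors, *elt-2* had 14.7 and 12.6 CPM in *pry-1(mu38)*, against 15.4 and 14.4 CPM in N2. The groups overlapped, with a log2 fold change of -0.13 (SE 0.20, adjusted p = 0.725), which was -0.0056 with *pry-1(mu38)* replicate 2 left out and -0.23 with its replicate 1 left out. *elt-7*, which acts alongside *elt-2* in the intestine, had 7.70 and 7.39 CPM in *pry-1(mu38)*, against 6.62 and 5.23 CPM in N2. Both mutant libraries lay above both N2 libraries, and the 1.27-fold difference was 0.35 on the log2 scale (SE 0.26, adjusted p = 0.486), or 0.18 with N2 replicate 2 left out and 0.56 with its replicate 1 left out. The sum of the 2 gut factors was 22.4 and 20.0 CPM in *pry-1(mu38)*, against 22.1 and 19.6 CPM in N2, while that of the 5 seam factors was 121.7 and 112.7 CPM in *pry-1(mu38)*, against 109.7 and 95.6 CPM in N2.

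**Figure D2:**
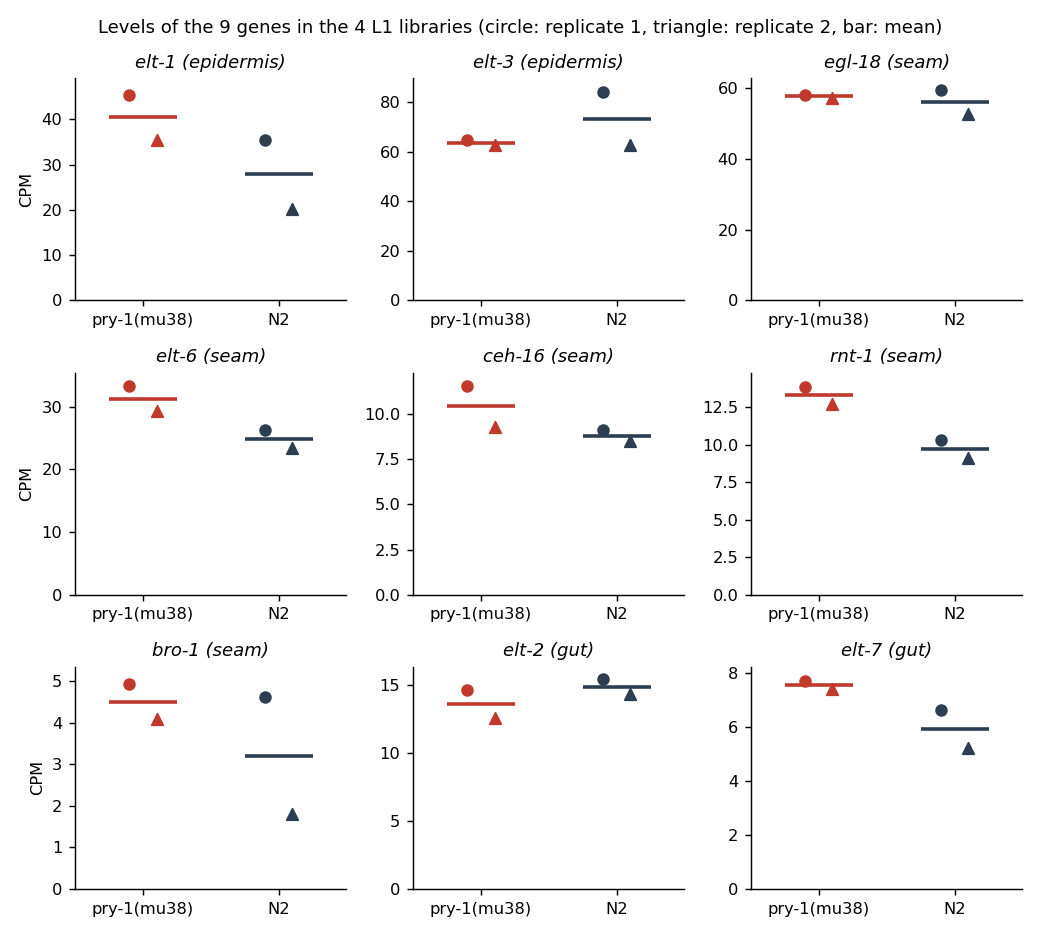
CPM of each gene in *pry-1(mu38)* (red) and N2 (dark), on axes that start at 0, with circles for replicate 1, triangles for replicate 2 and a bar for the mean of 2 libraries. The strains separate most cleanly in *rnt-1* (13.9 and 12.8 against 10.3 and 9.10 CPM) and *elt-6*, whereas *elt-3*, *egl-18*, *bro-1* and *elt-2* overlap.

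Altogether the log2 fold change was positive in 7 and negative in 2 of the 9 genes. Its median was 0.33, beside -0.022 over all genes tested. Without N2 replicate 2, it was positive in 5 and negative in 4 genes with a median of 0.18, and without N2 replicate 1 positive in 8 and negative in 1 with a median of 0.45. After quantile normalization 6 were positive and 3 negative. The quasi-likelihood test called 0 of the 9 genes and 0.00662% of all genes tested, that is 1 gene. In simulated data with the spread of these libraries, it recovered 11 of 100 log2 changes of 1, all planted in genes with a higher mean count than *bro-1*. None of the 9 had an unadjusted p under 0.05 (5.93% of all genes had one with a higher level and 8.23% with a lower level in *pry-1(mu38)*). DESeq2, which called 3.22% of all genes, and edgeR's exact test, which called 1.93%, also called none of the 9, nor did DESeq2 after quantile normalization, the scaling named in the study's methods, which called 3.58%. The study's own DESeq test reported more genes than DESeq2 called here, among them *pop-1*, *lin-17* and the yolk genes described below. The adjusted p of the 9 genes under DESeq2 was between 0.426 for *rnt-1* and 0.953 for *egl-18*. With any 1 library left out, 1 strain keeps a single library. For those fits only the fold changes of the 9 genes are given.

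The *pry-1(mu38)* levels were both above the N2 levels in 5 of the 9 genes, and in 29.1% of all genes tested. They were both below in 0 of the 9 genes, and in 28% of all genes. This count depended on the scaling, as did the share of all genes tested that were above. It was 5 with library sizes alone (32.3% of all genes) and 6 with upper-quartile scaling, which adds *egl-18* (33.2%). It was 4 with DESeq2's size factors, which loses *elt-1* (28.5%), and 5 with quantile normalization, which adds *egl-18* and loses *ceh-16* (34.1%). *elt-6*, *rnt-1* and *elt-7* were above under each of these scalings. The 95% intervals lay within 2-fold in both directions for 5 genes, *elt-3*, *egl-18*, *elt-6*, *ceh-16* and *elt-2*, and for 42.2% of all genes tested. For *elt-7* and *rnt-1* the upper bounds were 2.03 and 2.01-fold, and for *elt-1* and *bro-1* a change of 2-fold lay inside the interval.

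**Figure D3:**
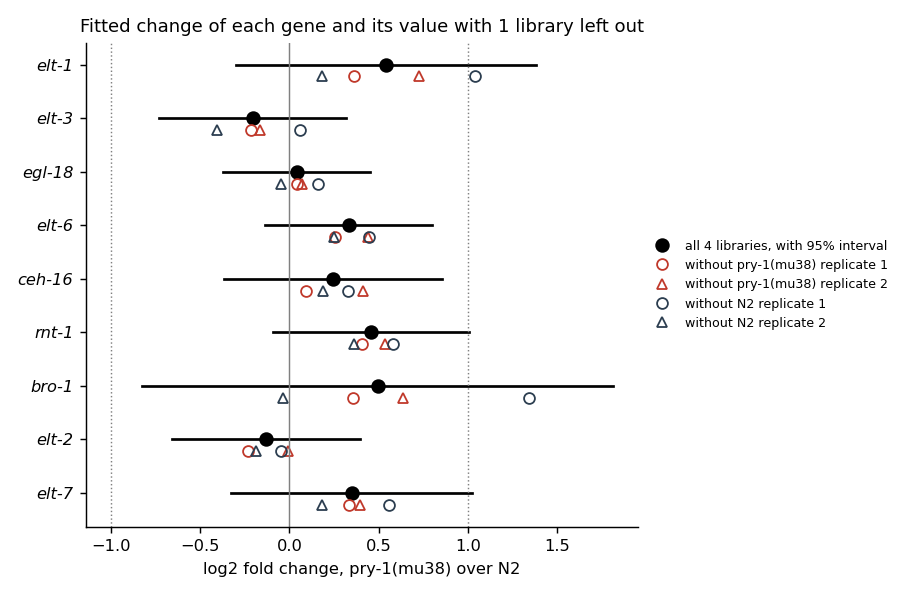
Log2 fold change of each gene, *pry-1(mu38)* over N2, with its 95% interval from the quasi-likelihood fit (black), and below it the value with 1 library left out (open symbols); dotted lines mark 2-fold. All 9 intervals include 0, and the left-out values spread most for *bro-1* (-0.038 to 1.34) and *elt-1* (0.18 to 1.04), where N2 replicate 2 differs from N2 replicate 1.

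A ratio of 2 genes within a library needs no scaling between libraries, so 5 pairs were compared in this way. In this design the smallest p that a two-sided exact permutation test can reach is 0.333, which became 0.417 after adjustment over the 5 pairs. How often other gene pairs separate the strains was not computed, so a separated ratio is only a description of these libraries. In the gut, the count of *elt-7* relative to *elt-2* was 0.525 and 0.588 in *pry-1(mu38)*, against 0.429 and 0.363 in N2. The mutant ratios were both higher, by 0.49 on the log2 scale (exact permutation p = 0.333), and by 0.37 to 0.61 with each library left out. In the seam, *egl-18* relative to *elt-6* was 1.75 and 1.95 in *pry-1(mu38)*, against 2.26 and 2.25 in N2. The N2 ratios were nearly identical, and the difference was -0.29 on the log2 scale (exact permutation p = 0.333), or -0.37 to -0.21 with each library left out.

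The epidermal pair showed the largest difference of the 5. *elt-3* relative to *elt-1* was 1.42 and 1.77 in *pry-1(mu38)*, against 2.37 and 3.11 in N2, a difference of -0.78 on the log2 scale (exact permutation p = 0.333), which was -0.97 to -0.58 with each library left out. *ceh-16* relative to *egl-18* was 0.199 and 0.162 in *pry-1(mu38)*, against 0.153 and 0.161 in N2. Here one library of each strain was almost equal, and the log2 difference of 0.19 was 0.047 without *pry-1(mu38)* replicate 1. *bro-1* relative to *rnt-1* was 0.356 and 0.320 in *pry-1(mu38)*, between the N2 values of 0.447 and 0.199, so that this pair of partners did not separate the strains.

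**Figure D4:**
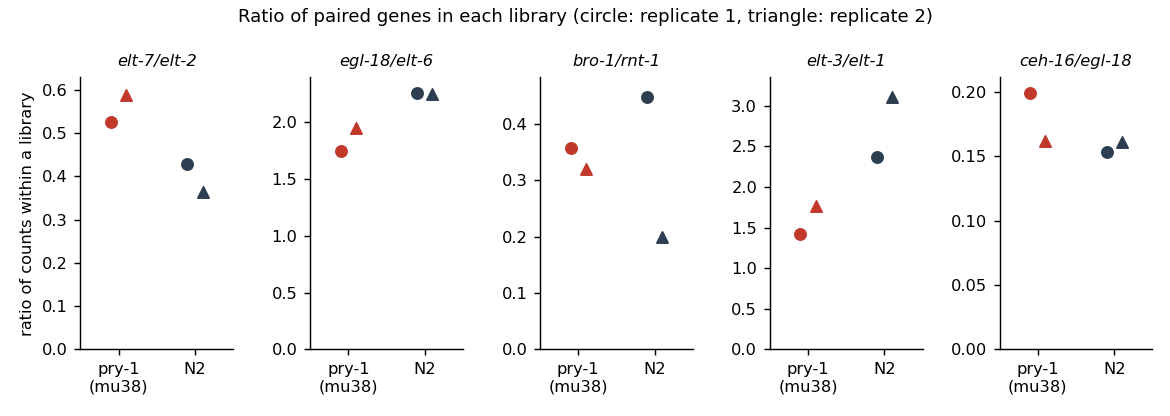
Ratio of the counts of 2 genes within each library, in *pry-1(mu38)* (red, left) and N2 (dark, right), with circles for replicate 1 and triangles for replicate 2. The strains do not overlap in *elt-7*/*elt-2*, *egl-18*/*elt-6*, *elt-3*/*elt-1* and *ceh-16*/*egl-18*, and they overlap in *bro-1*/*rnt-1*. How often ratios of other gene pairs separate the strains was not computed. The levels of single genes did so in 29.1% (above) and 28% (below) of all genes tested.

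Over the 4 libraries, the centred log2 levels of *elt-6* and *rnt-1* were the most alike among the 9 genes, at a root mean square distance of 0.0603, although 341 tested genes lay closer to *elt-6* than *rnt-1* did. *elt-7* and *ceh-16* were also nearest to *elt-6*, at 0.0705 and 0.0698, with 887 and 214 tested genes closer. *elt-1* and *bro-1*, the genes low in N2 replicate 2, were nearest to each other, at 0.128, with 463 and 106 genes closer. *egl-18* and *elt-3* were nearest to *elt-2*, at 0.113 and 0.134, with 2446 and 1233 genes closer. Outside the set, the genes nearest to *egl-18* were *T12E12.1*, *F15D4.3* and *lin-10* (0.00449 to 0.00786), and those nearest to *elt-2* were *K08F8.1*, *Y66D12A.24* and *col-147* (0.017 to 0.025). With so few libraries and 15101 genes, such nearness is a description of these libraries.

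The other genes of these tissues were read from 5 lists. The remaining GATA factors act mostly in the embryo. *end-1* and *end-3*, which specify the endoderm, had 3 to 7 counts in a library, and *med-1* had 0, 0, 0 and 1 counts, so these 3 were not tested. *elt-4*, a small gut GATA gene, had 0.466 and 0.312 CPM in *pry-1(mu38)*, against 0.476 and 0.846 CPM in N2, which is -0.77 on the log2 scale (SE 0.53, adjusted p = 0.454). The tested pair, *elt-4* and *med-2*, had a median of -0.87, which was -0.14 with N2 replicate 2 left out, where *elt-4* was at -0.29.

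Of 14 seam and epidermal regulators, 12 were tested and 0 were called by the quasi-likelihood test, DESeq2 or the exact test, with a median log2 fold change of 0.24. The median was 0.13 with N2 replicate 2 left out and 0.45 with its replicate 1 left out. Only *grh-1* had an unadjusted p under 0.05. The *pry-1(mu38)* levels were both above those of N2 in 6 genes (50%) and both below in 2 (16.7%). Over all genes tested these shares were 29.1% and 28%. The largest value was that of *grh-1*, the Grainyhead factor of epidermal differentiation, which had 94.6 and 83.8 CPM in *pry-1(mu38)*, against 55.3 and 49.3 CPM in N2. The strains were well apart, with a log2 fold change of 0.77 (SE 0.17, unadjusted p = 0.00627, adjusted p = 0.345). *nhr-23*, a nuclear receptor that drives molting, was at 0.61 on that scale (SE 0.27), and *lin-29*, a zinc finger factor of the larval-to-adult switch in the seam, at 0.56 (SE 0.25). With N2 replicate 2 left out, *grh-1* was at 0.69, *nhr-23* at 0.30 and *lin-29* at 0.50. With N2 replicate 1 left out, *nhr-23* was at 1.02. *lin-26* and *nhr-73* had at most 5 counts in a library and were not tested.

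The list for WNT signaling in seam divisions held 14 genes, not all of them specific to the asymmetry pathway. All 14 genes were tested, and 0 were called by any of these 3 tests. Their median log2 fold change was 0.073, or 0.042 and 0.14 with replicate 1 or 2 of *pry-1(mu38)* left out. In both libraries, 7 genes (50%) were above N2 and 3 (21.4%) below, beside 29.1% and 28% of all genes tested. *lin-17* alone had an unadjusted p under 0.05 in the quasi-likelihood test. The largest values were 0.72 for *pop-1* (SE 0.29), the TCF factor, 0.59 for *apr-1* (SE 0.27), the APC homolog, and 0.59 for *lin-17* (SE 0.15), a Frizzled receptor. With N2 replicate 2 left out, *pop-1* was at 0.38, *apr-1* at 0.28 and *lin-17* at 0.57, and with N2 replicate 1 left out *pop-1* was at 1.17 and *apr-1* at 1.01. *lin-17* had 110.1 and 101 CPM in *pry-1(mu38)*, against 71.0 and 69.9 CPM in N2, and its adjusted p was 0.345. *bar-1*, the β-catenin that PRY-1 holds in check, had 32.4 and 33.5 CPM in *pry-1(mu38)*, against 33.6 and 33.9 CPM in N2; it was chosen for mention after its values were seen.

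The gut list held genes of intestinal structure and digestion, many of them known targets of ELT-2. Of 21 genes, 20 were tested and the quasi-likelihood test called 0, while 2 genes with a higher and 2 with a lower level had an unadjusted p under 0.05. The median log2 fold change was 0.022, and its sign changed with the libraries and with quantile normalization. Both *pry-1(mu38)* levels were above N2 in 6 genes (30%) and below in 7 (35%), beside 29.1% and 28% of all genes tested. The yolk genes *vit-2* and *vit-6* stood out from the rest. *vit-2* had 122 and 134 CPM in *pry-1(mu38)*, against 0.585 and 6.10 CPM in N2, a difference of 5.24 on the log2 scale (SE 0.91, adjusted p = 0.345). *vit-6* had 96.2 and 90.3 CPM in *pry-1(mu38)*, against 2.12 and 5.20 CPM in N2, a difference of 4.66 (SE 0.42, adjusted p = 0.289). DESeq2 and the exact test called 3 genes of this list, *vit-2* and *vit-6* higher and *aqp-4*, an aquaporin gene, lower. With each library left out in turn, *vit-2* was at 4.42 to 7.76 and *vit-6* at 4.195 to 5.449 on the log2 scale. Both were lowest with N2 replicate 1 left out and highest with N2 replicate 2 left out. *pgp-1*, a P-glycoprotein, was at -1.78 (SE 0.64), with 84.8 and 112 CPM in *pry-1(mu38)*, against 139 and 537 CPM in N2. It was at -0.50 with N2 replicate 2 left out, and at -1.97 with *pry-1(mu38)* replicate 2 left out. In the same libraries the log2 fold changes of *elt-2* and *elt-7* were -0.13 and 0.35.

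Of 21 epidermal structure genes, mostly cuticle collagens, 0 were called by the quasi-likelihood test, DESeq2 or the exact test, and 0 had an unadjusted p under 0.05. After quantile normalization DESeq2 called 1, *sqt-3*, lower. With *pry-1(mu38)* replicate 2 left out, the quasi-likelihood test called 4 lower, the collagen genes *dpy-4*, *dpy-13*, *sqt-3* and *rol-6*. The median log2 fold change was -0.11, but 0.24 and 0.18 when replicate 1 of *pry-1(mu38)* or of N2 was left out. The groups were separated in 6 genes, 2 above (9.52%) and 4 below (19%), beside 29.1% and 28% of all genes tested. The largest values were -2.42 for *sqt-3* (SE 0.89), -1.81 for *rol-6* (SE 0.84) and -1.07 for *rol-8* (SE 0.49), with adjusted p-values of 0.345, 0.359 and 0.356. Over the 4 fits with a library left out, *sqt-3* was at -3.79 to -1.17, *rol-6* at -3.37 to -0.98 and *rol-8* at -1.65 to -0.45. These collagen genes varied strongly within a strain. *sqt-3* had 21.5 and 91.7 CPM in *pry-1(mu38)*, against 127 and 480 CPM in N2. On the log2 scale (CPM + 0.5), replicates of *pry-1(mu38)* differed by a median of 0.907 over the epidermal structure genes. This median was 0.177 over the 9 genes described here and 0.130 over all genes tested. In N2 these medians were 0.780, 0.173 and 0.411. The part of the difference between libraries in the result on collagen genes was not tested.

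**Figure D5:**
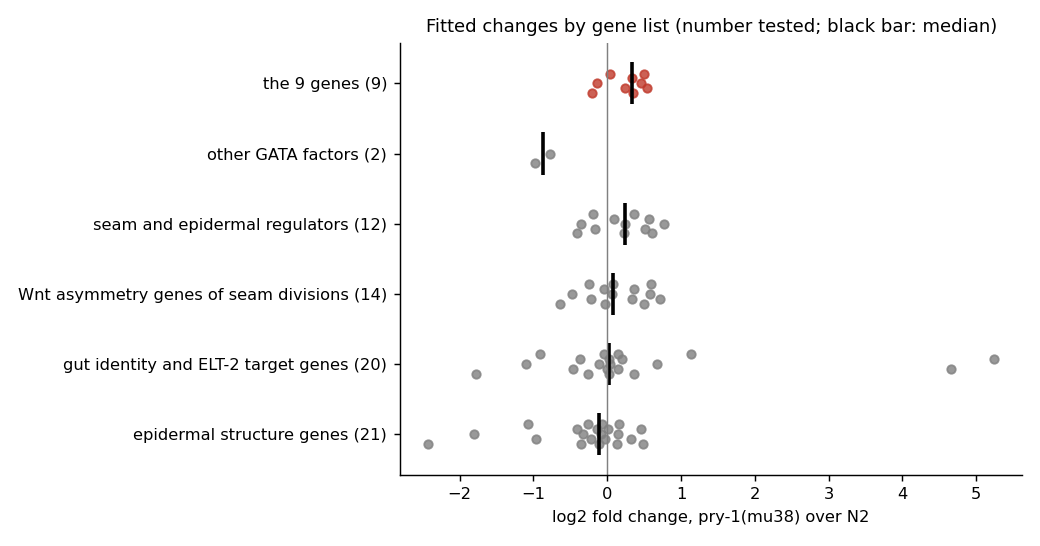
Log2 fold change, *pry-1(mu38)* over N2, of every tested gene in the 5 lists (grey) and of the 9 genes (red), with the median of each as a black bar. The 9 genes lie between -0.20 and 0.54, whereas the gut list reaches from -1.78 (*pgp-1*) to 5.24 (*vit-2*) and the epidermal structure list reaches down to -2.42 (*sqt-3*).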

How the data were processed

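RNA of whole L1 larvae was analysed in 4 libraries, grouped by the strain in the sample labels. The authors deposited a table of unnormalized read counts, 1 row per gene. Their methods name trimming, mapping to ce6 and DESeq on quantile-normalized counts; the read counter, its annotation and its strand setting are not given in the sources used here. Summary lines (reads that could not be given to a single gene), 15.4% to 18.3% of a library, were left out.

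Counts were tested with edgeR 4.0.16 in R 4.3.3: filterByExpr with a minimum count of 10, TMM scaling (factors from 0.985 to 1.02), the quasi-likelihood test and an adjusted p threshold of 0.05. Standard errors and 95% intervals come from this fit. TPM used exon lengths of the WBcel235 annotation, which matched 18084 of 19913 names; coordinates are left out, since ce6 is another build. No sequences are shown. Scripts were tested on simulated data. With the spread between replicates estimated from these data, the quasi-likelihood test recovered 11 of 100 simulated log2 changes of 1. It recovered 86 of 100 log2 changes of 2. A gene that was not called may thus have changed. Distances used log2(CPM + 0.5).

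All 9 genes are named. Of each list, called genes are named, and otherwise the 3 with the largest absolute log2 fold change, a mean of at least 10 counts and groups that do not overlap; genes named beyond this rule were chosen after their values were seen. The 9 genes and the lists were chosen with earlier results of these data known. *pept-1* and *myo-1* matched no row and were not analysed here. The alternatives were DESeq2 1.42.0, edgeR's exact test, other scalings (quantile normalization with limma 3.58.1) and filters, a replicate block and each library left out.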

Additional observations from a re-analysis of the deposited data

How the results depend on the processing

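The quasi-likelihood test called 1 gene of all those tested, 0 higher and 1 lower in *pry-1(mu38)*. DESeq2 called 486 (180 higher, 306 lower), the exact test 292 (146 and 146), quantile normalization followed by DESeq2 543 (197 and 346), and the fit with no filter beyond 1 count called 0, with 0 lower. Leaving out a library gave 0 to 512 calls, with 0 to 73 higher and 0 to 460 lower. Among these, 39 genes were called with *pry-1(mu38)* replicate 1 left out and 512 with its replicate 2 left out, and 0 with N2 replicate 1 left out and 219 with its replicate 2 left out. A lone library is assumed there to vary like the pair of the other strain. The cause of these differences was not tested. None of the alternatives that kept all 4 libraries called any of the 9 genes. Over all 12 alternatives, 6 of the 9 genes kept the sign of their fold change. The exceptions were *egl-18*, at -0.012 after quantile normalization and -0.048 to 0.16 with a library left out, *elt-3*, at -0.41 to 0.057 with a library left out, and *bro-1*, at -0.038 to 1.34. The log2 ratio difference of *bro-1* to *rnt-1*, 0.18, ranged from -0.41 to 0.76 with a library left out. The median of the gut list was -0.057 after quantile normalization, and -0.027 to 0.081 with a library left out, and that of the epidermal structure list was -0.71 to 0.24.

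With a replicate block, the test called 2327 genes (673 higher, 1654 lower) and 0 of the 9; the adjusted p of *elt-1* was then 0.0903 and that of *rnt-1* was 0.300. Of the lists, it called *grh-1* and *pop-1* higher, 5 gut genes and 4 epidermal structure genes, beside 15.4% of all genes tested. Of the gut genes, *cpr-6*, *vit-2* and *vit-6* were higher and *aqp-4* and *pgp-1* lower. The epidermal structure genes, *sqt-3*, *rol-6*, *rol-8* and *wrt-2*, were all lower. The libraries share only a replicate number. The deviations of same-numbered libraries from their strain means correlated at 0.533 over genes, but with 2 pairs this does not show that the numbers pair the libraries. Of the 9 genes, *bro-1* had the lowest counts, 60 to 159 in a library, and the largest difference between N2 replicates, 1.35 on the log2 scale; which of these sets its wide interval was not tested.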
